A study of Homo sapiens with 4 samples.

Results

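The genes described here encode lysosomal hydrolases, lysosomal membrane proteins and subunits of the vacuolar proton pump (V-ATPase), 52 genes chosen by gene name. Their mRNA levels were measured by RNA-seq of poly(A) RNA in A549 cells, a human lung adenocarcinoma line of epithelial origin, 72 h after infection with lentiviruses expressing a control shRNA (shctrl, 2 libraries) or an shRNA against the lncRNA USP2-AS1 (shUSP2-AS1, 2 libraries). Both groups were infected with an shRNA virus, no uninfected cells were included, and the study's methods call the 2 libraries of a group biological replicates without saying whether they came from separate infections, so p-values measure only the spread between these libraries. The table heads the shUSP2-AS1 columns sh216 and the shctrl columns scr, and they were taken as these groups from the table's name, which sets shUSP2-AS1 against shctrl. The table holds 6828 genes and lists only genes that passed the authors' own test at an adjusted p-value below 0.05. Of the 52 lysosomal genes, 41 have a row in it. The other 11, NEU1, GLA, GUSB, CTSC, CTSZ, MCOLN1, CLN3, ATP6V0B, ATP6V0C, ATP6V1B2 and ATP6V1D, were not analysed here, and nothing is said of their level or direction.

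Lysosomes break down macromolecules in an acidic lumen. Soluble hydrolases, made in the endoplasmic reticulum and mostly sorted by a mannose phosphate tag, cut different kinds of bonds. Heavily glycosylated membrane proteins line the limiting membrane, and transporters carry products out. The V-ATPase acidifies the lumen with a membrane sector, V0, that conducts protons and a cytosolic sector, V1, that hydrolyses ATP. Senescent cells are known for an enlarged lysosomal compartment, and GLB1 encodes the lysosomal β-galactosidase whose activity is stained as senescence-associated β-galactosidase. Many lysosomal genes carry a binding element for the transcription factor TFEB and its relatives in their promoters. The comparison of shUSP2-AS1 with shctrl cells asks which genes differ when USP2-AS1 is knocked down. With no other USP2-AS1 shRNA in the comparison, loss of USP2-AS1 and other effects of the shRNA cannot be told apart.

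Levels are given as normalized read counts, that is, reads of a gene divided by a size factor of its library. Whole reads were recovered from these values, and 10772788 to 14120472 reads per library fell on the listed genes. The 41 lysosomal genes had between 241 reads (MANBA) and 40554 reads (PSAP) in a library. USP2-AS1 itself, the targeted lncRNA, stood at 23.2 and 24.2 in shctrl cells, against 2.10 and 6.16 in shUSP2-AS1 cells, a log2 fold change of -2.39 (SE 0.56, adjusted p = 0.000597) that rests on 2 to 24 reads per library. Log2 fold changes are shUSP2-AS1 minus shctrl on the log2(value + 1) scale, with standard errors (SE) and Benjamini-Hochberg adjusted p-values from limma over the 6812 genes whose mean value was 10 or more.

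Most of the lysosomal genes with a row were expressed at a higher level in shUSP2-AS1 cells. In bulk RNA a change in the mix of cells and a change of RNA per cell cannot be told apart. Of the 41 genes, 38 rose and 3 fell at an adjusted p below 0.05, and the 3 that fell were ATP6V1A, PPT1 and NPC1. Since the table was selected on the same contrast, nearly every gene in it passes this test: 50.6% of all genes tested were higher and 49.4% were lower, so that passing says little beyond being listed, and the count is read by its direction. In none of the 41 genes did the libraries of the groups overlap, which was also true of 50.6% of all genes tested in the higher direction and 49.3% in the lower. Under the stricter rule that also asks for a change of 1 or more on the log2 scale, 9 of the 41 rose, SMPD1, CTSS, FUCA1, LIPA, ARSA, MANBA, GLB1, TPP1 and ATP6V0A1, against 16.1% of all genes tested, and 0 fell, against 13.5%. The median log2 fold change of the 41 genes was 0.72, beside a median of 0.19 over all genes tested, whose middle 50% ran from -0.67 to 0.72. The 41 genes spread through the upper part of that range, with 21 above its 75th percentile, 19 within the middle 50% and 1, ATP6V1A, below the 25th percentile. Summed over the 41 genes, the normalized read count was 85440.1 and 81890.4 in shctrl and 132840.0 and 134909 in shUSP2-AS1 libraries, a log2 ratio of 0.68 ± 0.046 (SD of the ratio, n = 2 per group). Their share of the sum over all listed genes was 0.717% and 0.692% in shctrl against 1.08% and 1.09% in shUSP2-AS1 libraries. Here and below, the SD of a log2 ratio combines the spreads of the 2 groups and is not a standard error of the mean ratio.

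**Figure D1:**
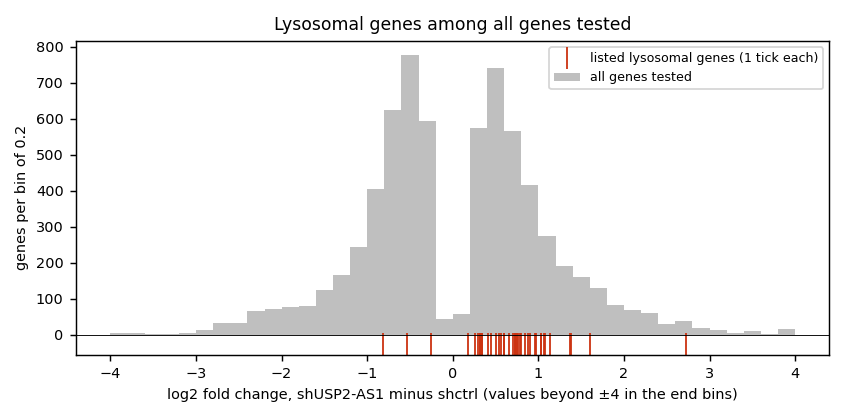
Histogram of the log2 fold change (shUSP2-AS1 minus shctrl, x axis, bins of 0.2) of the 6812 genes tested (y axis, genes per bin), with 1 red tick for each of the 41 lysosomal genes with a row in the table. The few genes near 0 reflect that the table lists only genes past the authors' threshold, and 38 of the 41 ticks lie above 0.

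The size of these changes, and how the count at the stricter rule compares with the background, depend on how the libraries were scaled. The recovered reads were scaled by the median-of-ratios method with factors from the listed genes only. This lowered the median of all genes by 0.118 on the log2 scale. Then 5 of the 41 genes (SMPD1, CTSS, FUCA1, LIPA and ARSA) had a log2 fold change of at least 1 instead of 9. These 5 are 12.2% of the 41, below the 13.7% of all genes that were higher by that rule under the same scaling, whereas the 9 are 22.0% of the 41 against 16.1%. Among all genes the balance turned as well, from 1098 higher and 922 lower to 930 higher and 1143 lower. Whether the count of lysosomal genes lies above the background share at this rule therefore depends on the size factors used. Median-of-ratios scaling takes most genes as unchanged, whereas every listed gene was selected as changed. Which factors are nearer the truth was not tested. Under either scaling 0 of the 41 were called lower at this rule. The smallest change of the 41 in size was 0.17 (CTSL), more than any scaling moved the median, so that the scalings could hardly turn a direction, and leaving out a library turned none. DESeq2, rerun on the listed genes with size factors from them, kept 33 of the 38 calls in the higher direction, without CTSL, CTSA, SGSH, CTNS and ATP6V1H. All 5 had passed the authors' own DESeq2 test, as has every listed gene. Adjusted p-values given below with DESeq2 are from this rerun.

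**Figure D2:**
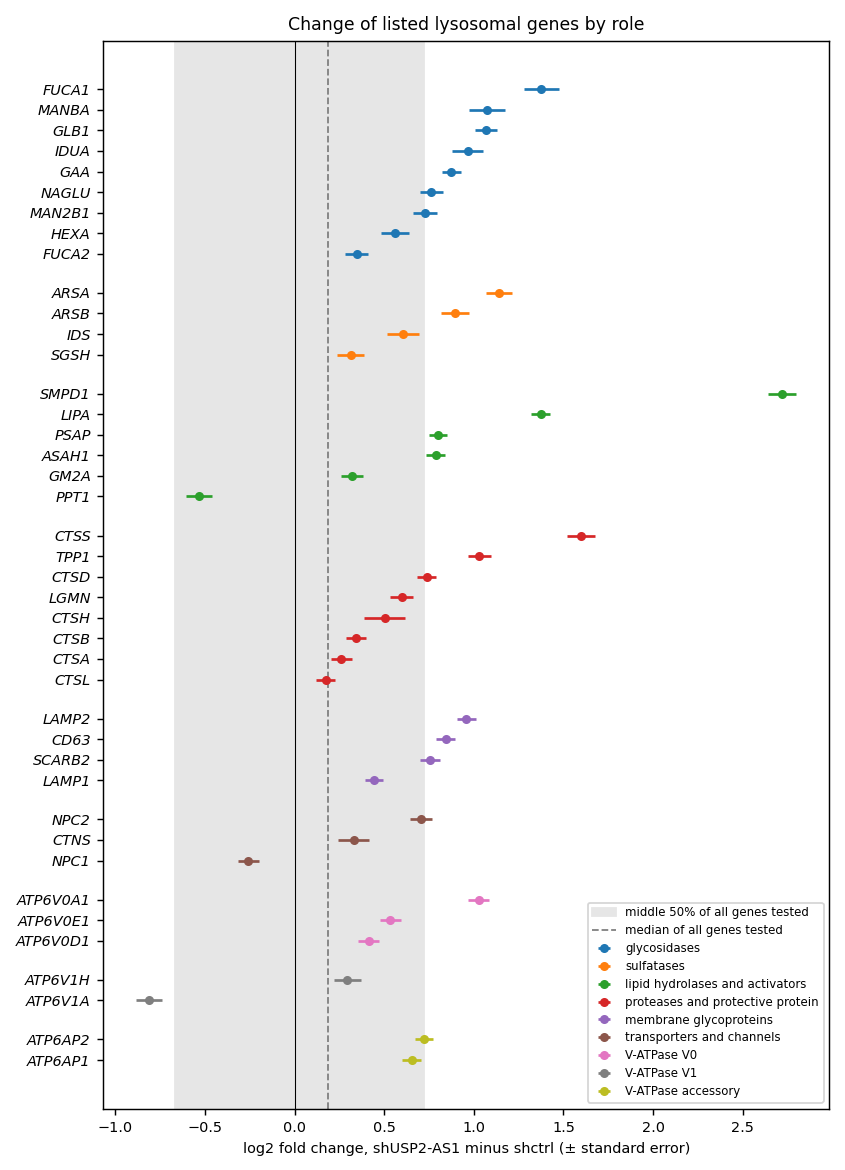
Log2 fold change (x axis, shUSP2-AS1 minus shctrl, bars ± SE, 2 libraries per group) of each of the 41 genes, coloured by role and ordered within each role, with the middle 50% (grey) and the median (dashed) of all genes tested. SMPD1 stands farthest to the right at 2.72, and ATP6V1A, PPT1 and NPC1 lie below 0.

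Promoter sequences are shown because TFEB and its relatives bind a known element in many lysosomal promoters and these genes mostly moved one way. RefSeq promoter windows (GRCh38.p14, 250 bases before to 50 bases after a gene's start) were matched by symbol for 37 of the 52 genes, 27 of them with a row in the table. The E-box, CACGTG, and the core of the TFEB element, TCACGTGA, were searched, and both read the same on either strand, with the second containing the first. The following stretches run 5′ to 3′ on the gene's strand, from position -90 to -1 relative to the RefSeq start except for LAMP1 (80 bases from position -200), with matches in capitals. GAA, CTSA and ATP6V0D1 hold the TFEB core and have values here, and MCOLN1 holds it and was not analysed for expression. LAMP1 carries a cluster of E-boxes in the stretch shown and also holds the TFEB core, nearer its start and outside that stretch. SMPD1, the gene with the highest fold change of the 41, holds neither the E-box nor the core.
GAA (chr17:80101491-80101580, plus strand): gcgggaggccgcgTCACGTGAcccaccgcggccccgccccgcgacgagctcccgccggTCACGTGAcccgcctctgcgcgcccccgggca
CTSA (chr20:45891245-45891334, plus strand): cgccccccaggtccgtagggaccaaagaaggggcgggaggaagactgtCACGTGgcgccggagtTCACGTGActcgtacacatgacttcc
ATP6V0D1 (chr16:67481158-67481247, minus strand): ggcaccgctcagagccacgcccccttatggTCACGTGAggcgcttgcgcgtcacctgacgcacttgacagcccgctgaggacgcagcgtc
MCOLN1 (chr19:7522534-7522623, plus strand): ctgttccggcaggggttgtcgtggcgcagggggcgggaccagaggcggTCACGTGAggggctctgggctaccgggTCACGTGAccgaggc
LAMP1 (chr13:113297039-113297118, plus strand): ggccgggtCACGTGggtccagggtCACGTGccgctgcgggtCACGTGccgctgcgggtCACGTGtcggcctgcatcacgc
SMPD1 (chr11:6390384-6390473, plus strand): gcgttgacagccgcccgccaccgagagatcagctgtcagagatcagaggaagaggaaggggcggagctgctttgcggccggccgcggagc

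The E-box was present in the windows of 11 of the 37 lysosomal genes (29.7%), against 8.77% of 27305 genes with a window and 12.9% of the 5214 genes of the table with one. The TFEB core was present in 6 of the 37 (16.2%), against 1.18% and 2.42%. Among the lysosomal genes with a row, 7 of 27 (25.9%) held an E-box (ARSB, ATP6V0D1, CD63, CTSA, CTSD, GAA and LAMP1). The TFEB core was in 4 of 27 (14.8%; ATP6V0D1, CTSA, GAA and LAMP1). Since 10 of the 37 genes have no row, it is these shares that compare with the 12.9% and 2.42% of genes of the table. Over the whole table the TFEB core was in 1.64% of the windows of genes that rose and 3.17% of those that fell. The median log2 fold change was 0.74 in the 7 lysosomal genes with an E-box and 0.71 in the 20 without one. The 4 genes that hold the TFEB core had log2 fold changes of 0.26 (CTSA), 0.41 (ATP6V0D1), 0.44 (LAMP1) and 0.87 (GAA), 3 of them below the median of the 41 genes. Of the 9 genes with a log2 fold change of at least 1, 6 had a window and 0 of these 6 held an E-box. A match describes letters in the window and is not a measured binding site. Only exact matches were taken, and sites outside the windows or with other letters were not examined. Some genes, such as CD63, have several windows and were counted if any window held a match.

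The glycosidases, which trim sugars from glycoproteins, glycolipids and glycosaminoglycans, rose in every one of the 9 of 12 genes with a row, and 3 passed a log2 fold change of 1. Beside the class counts here and below, 50.6% of all genes tested were higher, and 16.1% were higher under the stricter rule. Under median-of-ratios scaling MANBA (0.956) and GLB1 (0.950) were below 1. The summed normalized read count of the glycosidases was 8899 and 8579.6 in shctrl cells, against 15268 and 15698 in shUSP2-AS1 cells, a log2 ratio of 0.83 ± 0.047 (SD, n = 2 per group). FUCA1, the lysosomal α-fucosidase, was at 241 and 276 in shctrl and at 662 and 679 in shUSP2-AS1 libraries. Both shUSP2-AS1 libraries stood far above both shctrl libraries, with a log2 fold change of 1.38 (SE 0.10, adjusted p = 5.87e-10). MANBA, the β-mannosidase that removes the last mannose of N-glycan cores, was at 247 and 265 in shctrl cells, against 558 and 522 in shUSP2-AS1 cells. Its log2 fold change was 1.07 (SE 0.10, adjusted p = 1.75e-08), and MANBA had the lowest level per length of the 41 genes in both groups.

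GLB1 (ENSG00000170266, chromosome 3, 32996609 to 33097202 on the minus strand in hg38), the β-galactosidase behind the senescence stain, was at 1238 and 1269 in shctrl and at 2506 and 2757 in shUSP2-AS1 libraries. The groups did not overlap, which was also true of 50.6% of all genes tested in the higher direction. The difference between the shUSP2-AS1 libraries was small beside that between the groups, and the log2 fold change was 1.07 (SE 0.06, adjusted p = 3.42e-11). Leaving out 1 library at a time gave 1.00 to 1.14, and without shUSP2-AS1 replicate 2 the value was just below 1, at 0.999. CTSA encodes the protective protein that holds GLB1 and the sialidase NEU1 in a stable complex and is also a carboxypeptidase. CTSA was at 1646 and 1612 in shctrl cells, against 1981 and 1925 in shUSP2-AS1 cells, a log2 fold change of 0.26 (SE 0.06, adjusted p = 0.000315), well below that of GLB1. Of all genes tested, 85.4% had a log2 fold change below that of GLB1.

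The remaining glycosidases had log2 fold changes between 0.35 and 0.97. IDUA, which removes iduronic acid from heparan and dermatan sulfate, reached 0.97, GAA, which degrades glycogen, 0.87, and NAGLU, an enzyme of heparan sulfate breakdown, 0.76. MAN2B1, the α-mannosidase, stood at 0.73, HEXA, the α subunit of β-hexosaminidase, at 0.56, and FUCA2, a mostly secreted fucosidase, at 0.35. FUCA1 and FUCA2, which cut the same sugar, thus rose by different amounts.

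All 4 sulfatases rose, and 1 passed a log2 fold change of 1. ARSA, which removes sulfate from the myelin lipid sulfatide, was at 574 and 570.4 in shctrl and at 1234 and 1291 in shUSP2-AS1 libraries, with a log2 fold change of 1.14 (SE 0.07, adjusted p = 9.78e-11). ARSB, which acts on dermatan and chondroitin sulfate, was at 471 and 457 in shctrl cells, against 879 and 850.5 in shUSP2-AS1 cells, with a log2 fold change of 0.90 (SE 0.08, adjusted p = 8.72e-09). In both genes the replicates lay close together and the groups far apart. IDS, the iduronate sulfatase, was at 825 and 914 in shctrl and at 1476 and 1179 in shUSP2-AS1 libraries. Its shUSP2-AS1 libraries differed more from each other than in ARSA or ARSB, and its log2 fold change was 0.60 (SE 0.09, adjusted p = 5.88e-06). Most of the annotated exon length of IDS (75.9%) is shared with other annotated genes on the same strand, so its count is uncertain. SGSH, which removes sulfate from heparan sulfate, stood at 0.31. The sum over the 4 sulfatases had a log2 ratio of 0.74 ± 0.067 (SD, n = 2 per group).

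The genes for lipid breakdown held both the highest increase and one of the decreases. SMPD1 (ENSG00000166311, chromosome 11, 6390440 to 6394998 on the plus strand), the acid sphingomyelinase that turns sphingomyelin into ceramide, was at 256 and 270.4 in shctrl cells, against 1809.8 and 1673 in shUSP2-AS1 cells. The 2 groups were separated by a 6.62-fold difference in their means, the largest among the 41 genes. Its log2 fold change was 2.72 (SE 0.08, adjusted p = 8.18e-15), higher than 98.8% of all genes tested, and stayed between 2.60 and 2.78 under all alternatives tried. ASAH1, the acid ceramidase that acts on the ceramide so formed, was at 1815 and 1778 in shctrl and at 3146 and 3057 in shUSP2-AS1 libraries, a log2 fold change of 0.79 (SE 0.05, adjusted p = 3.58e-10). Per kb of gene length, the ratio of SMPD1 to ASAH1 went from 0.792 and 0.853 in shctrl to 3.23 and 3.07 in shUSP2-AS1 libraries. The length used counts exons that a cell may not use, and was 2741 bases for SMPD1 and 15378 for ASAH1. By normalized read count SMPD1 was below ASAH1 in every library. The ratio thus gives the change between the groups, and which of these genes stood higher is uncertain.

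LIPA, the acid lipase that releases cholesterol and fatty acids from esters, was at 1697 and 1589 in shctrl cells, against 4263 and 4242 in shUSP2-AS1 cells. The replicates differed little and the log2 fold change was 1.37 (SE 0.05, adjusted p = 2.97e-13). LIPA overlaps IFIT2 and IFIT3 on the opposite strand at 65 and 94 exon bases, and whether counting used strand is not stated. PSAP, the precursor of the saposins that help hydrolases reach their lipids, was at 20786 and 19662 in shctrl and at 34687 and 35705 in shUSP2-AS1 libraries. PSAP was the most abundant of the 41 genes per length in both groups, made up 77.0% of the summed level of the lipid genes in shctrl cells, and changed by 0.80 (SE 0.05, adjusted p = 1.41e-10).

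PPT1, the thioesterase that removes palmitate from proteins, was at 1171 and 1075 in shctrl cells, against 751 and 798 in shUSP2-AS1 cells. PPT1 was lower in both shUSP2-AS1 libraries, with a log2 fold change of -0.54 (SE 0.07, adjusted p = 2.11e-06). GM2A, the activator that presents GM2 ganglioside to β-hexosaminidase, stood at 0.32. The sum over the 6 lipid genes was 26950.1 and 25553 in shctrl and 46182 and 46949 in shUSP2-AS1 libraries, a log2 ratio of 0.83 ± 0.057 (SD, n = 2 per group).

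**Figure D3:**
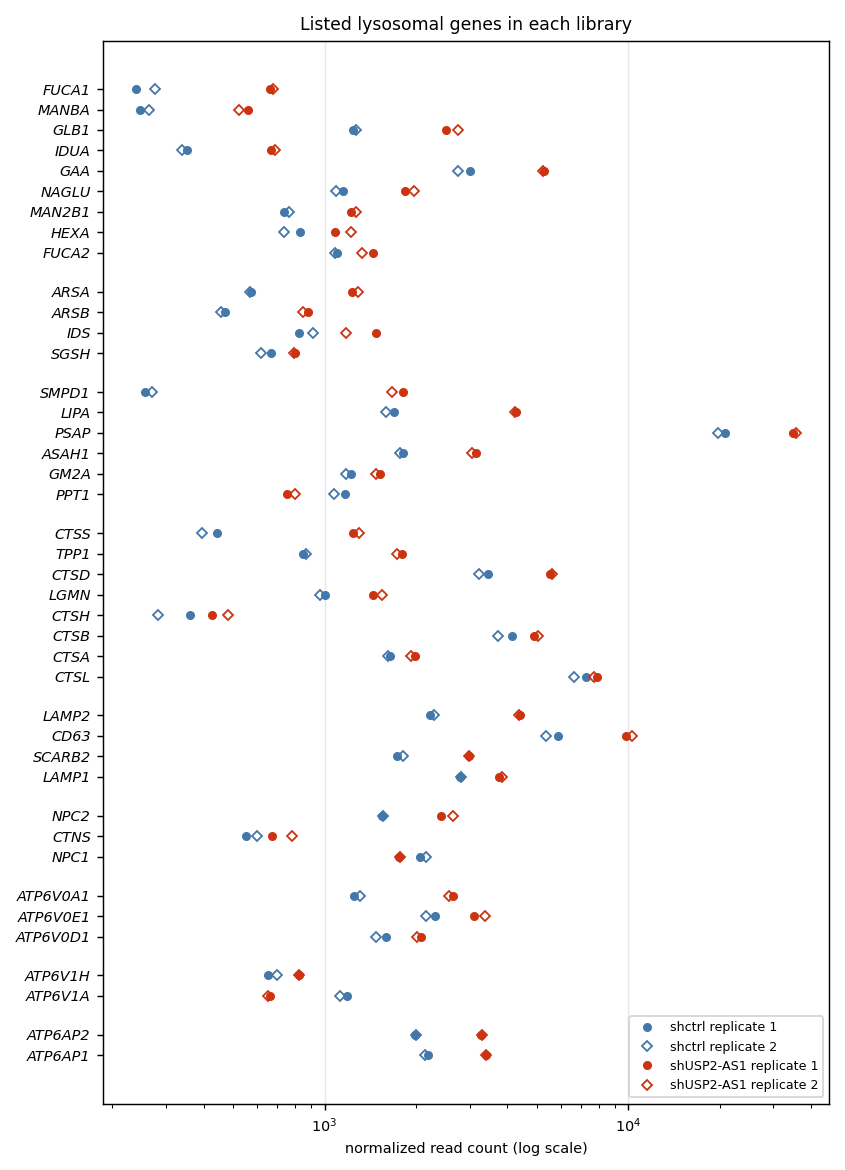
Normalized read count (x axis, log scale) of each of the 41 genes in the 4 libraries, blue for shctrl and red for shUSP2-AS1, filled circles for replicate 1 and open diamonds for replicate 2. Red symbols lie to the right of blue ones in 38 genes and to the left in PPT1, NPC1 and ATP6V1A, with no overlap of the groups in any row. Over all genes tested, the groups did not overlap in 50.6% in the higher direction and 49.3% in the lower.

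Lysosomal proteases rose in the 8 of 10 genes with a row, with increases that differed widely between them. CTSS, a cysteine protease that also works near neutral pH and processes the invariant chain in antigen-presenting cells, was at 444 and 395 in shctrl cells, against 1237 and 1299.5 in shUSP2-AS1 cells. The means of the groups differed 3.03-fold, and the log2 fold change was 1.60 (SE 0.08, adjusted p = 5.77e-12). TPP1, which removes tripeptides from protein ends, was at 852 and 870.4 in shctrl and at 1795 and 1727 in shUSP2-AS1 libraries, with a log2 fold change of 1.03 (SE 0.06, adjusted p = 7.88e-11). CTSD, the main aspartic protease of the lysosome, was at 3449.6 and 3217 in shctrl cells, against 5502 and 5603 in shUSP2-AS1 cells. Its log2 fold change was 0.74 (SE 0.05, adjusted p = 5.30e-10), and 48.0% of its annotated exon length is shared with other annotated genes on either strand.

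The protease gene with the highest level per length had the smallest change. CTSL, a broad cysteine protease, was at 7232 and 6614 in shctrl and at 7896 and 7693 in shUSP2-AS1 libraries. The lowest shUSP2-AS1 library exceeded the highest shctrl library by a small margin, and the log2 fold change was 0.17 (SE 0.05, adjusted p = 0.00425), below the median of all genes tested. CTSL lost its call under median-of-ratios scaling (log2 fold change 0.05, limma adjusted p = 0.296), with DESeq2 (0.06, adjusted p = 0.358) and without shctrl replicate 2 (0.11, limma adjusted p = 0.102). Per kb, the level of CTSS was 0.0279 and 0.0271 times that of CTSL in shctrl against 0.0712 and 0.0768 times in shUSP2-AS1 libraries.

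LGMN, the asparaginyl endopeptidase that matures other cathepsins, stood at 0.60, CTSH, an aminopeptidase, at 0.50, and CTSB, a cysteine protease, at 0.34. CTSH had the highest SE of the 41 genes, 0.12. CTSL held 37.6% of the summed protease level in shctrl cells. The sum was 19118 and 17693 in shctrl cells, against 25176 and 25323 in shUSP2-AS1 cells, a log2 ratio of 0.46 ± 0.079 (SD, n = 2 per group).

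The 4 membrane glycoproteins all rose, by different amounts, and none of them reached a log2 fold change of 1 (LAMP2 did with upper quartile scaling, at 1.02). LAMP2, a major protein of the limiting membrane with a part in chaperone-mediated autophagy, was at 2218 and 2294 in shctrl and at 4397 and 4369.5 in shUSP2-AS1 libraries, a log2 fold change of 0.96 (SE 0.05, adjusted p = 1.43e-11). CD63, a tetraspanin of late endosomes and exosomes, was at 5860.4 and 5373 in shctrl cells, against 9849 and 10271 in shUSP2-AS1 cells, a log2 fold change of 0.84 (SE 0.05, adjusted p = 1.10e-10). SCARB2, the receptor that carries glucocerebrosidase to lysosomes, was at 1736 and 1808 in shctrl and at 2980.2 and 2997 in shUSP2-AS1 libraries, a log2 fold change of 0.75 (SE 0.05, adjusted p = 7.17e-10). In each of the 3 genes the lower shUSP2-AS1 library was well above the higher shctrl library. LAMP1, the close relative of LAMP2, stood at 0.44, and the ratio of LAMP2 to LAMP1 per kb went from 0.484 and 0.499 in the shctrl libraries to 0.715 and 0.693 in the shUSP2-AS1 libraries.

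Among transporters, the partners of cholesterol export differed in direction. NPC2, the soluble protein that takes cholesterol from internal membranes, was at 1545 and 1556 in shctrl cells, against 2414 and 2649 in shUSP2-AS1 cells, a log2 fold change of 0.71 (SE 0.06, adjusted p = 5.71e-09). NPC1, the membrane protein that receives cholesterol from NPC2, was at 2063 and 2155 in shctrl and at 1758 and 1769 in shUSP2-AS1 libraries, a log2 fold change of -0.26 (SE 0.06, adjusted p = 0.000323). So NPC2 was higher and NPC1 lower in both shUSP2-AS1 libraries, and their ratio per kb was 2.81 and 2.71 in shctrl against 5.16 and 5.63 in shUSP2-AS1 libraries. CTNS, the cystine exporter, was at 553 and 599 in shctrl cells, against 672 and 779 in shUSP2-AS1 cells, a log2 fold change of 0.33 (SE 0.09, adjusted p = 0.00154). The groups lay close to each other for CTNS, and with DESeq2 its adjusted p was 0.0806. Summed levels had a log2 ratio of 0.77 ± 0.037 for the 4 membrane glycoproteins and 0.24 ± 0.08 for the 3 transporters (SD, n = 2 per group), and the last fell to 0.127 under median-of-ratios scaling.

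Subunits of the V-ATPase did not move as one. Of the membrane sector V0, all 3 genes with a row rose. ATP6V0A1, the a1 isoform of the subunit that forms the path of protons, was at 1251 and 1310.0 in shctrl and at 2650.0 and 2569 in shUSP2-AS1 libraries, a log2 fold change of 1.03 (SE 0.06, adjusted p = 2.62e-11), which fell to 0.994 without shctrl replicate 1. ATP6V0E1, a small membrane subunit, was at 2311 and 2158 in shctrl cells, against 3101 and 3375 in shUSP2-AS1 cells, a log2 fold change of 0.53 (SE 0.06, adjusted p = 1.62e-07). ATP6V0D1, which couples the rotor to the central stalk, was at 1598 and 1480.3 in shctrl and at 2077 and 2019 in shUSP2-AS1 libraries, a log2 fold change of 0.41 (SE 0.06, adjusted p = 4.85e-06). None of these 3 genes had overlapping groups, which was also true of 50.6% of all genes tested in the higher direction. The 3 increases differed in size.

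Of the cytosolic sector V1, ATP6V1A fell and ATP6V1H rose. ATP6V1A (ENSG00000114573, chromosome 3, 113747033 to 113812056 on the plus strand), the subunit that binds and hydrolyses ATP, was at 1183 and 1129 in shctrl cells, against 661 and 653 in shUSP2-AS1 cells. The mean of the shUSP2-AS1 libraries was 0.569 times that of the shctrl libraries, and the log2 fold change was -0.81 (SE 0.07, adjusted p = 7.47e-09), the lowest of the 41 genes. ATP6V1H, a regulatory subunit that bridges the sectors, was at 651 and 696 in shctrl and at 825 and 824 in shUSP2-AS1 libraries, a log2 fold change of 0.29 (SE 0.07, adjusted p = 0.00115), with an adjusted p of 0.115 by DESeq2. Per kb, the ratio of ATP6V0A1 to ATP6V1A went from 0.495 and 0.543 in the shctrl libraries to 1.88 and 1.84 in the shUSP2-AS1 libraries. The ratio of ATP6V0D1 to ATP6V1A likewise went from 0.848 and 0.823 to 1.97 and 1.94, and that of ATP6V1H to ATP6V1A from 0.552 and 0.618 to 1.25 and 1.26. The lengths used were 10926 bases for ATP6V0A1, 8156 for ATP6V0D1 and 5116 for ATP6V1A. By normalized read count, ATP6V0A1 and ATP6V0D1 were above ATP6V1A in every library. Whether these V0 genes stood below ATP6V1A in shctrl cells thus depends on the length.

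Both accessory proteins of the pump rose by similar amounts. ATP6AP2, also known as the prorenin receptor, was at 1982 and 2004 in shctrl cells, against 3274 and 3303 in shUSP2-AS1 cells, a log2 fold change of 0.72 (SE 0.05, adjusted p = 8.01e-10). ATP6AP1, which assists assembly of V0, was at 2189.6 and 2139.7 in shctrl and at 3411 and 3398 in shUSP2-AS1 libraries, a log2 fold change of 0.65 (SE 0.05, adjusted p = 2.70e-09). The sum over the 7 V-ATPase genes with a row was 11166 and 10917 in shctrl cells, against 15999.8 and 16142 in shUSP2-AS1 cells, a log2 ratio of 0.54 ± 0.025 (SD, n = 2 per group). By group of subunits the log2 ratio was 0.64 ± 0.046 for V0, -0.30 ± 0.0085 for V1 and 0.69 ± 0.0071 for the accessory proteins. The V1 sum joins a fall in ATP6V1A with a rise in ATP6V1H and describes neither gene. In shctrl, the replicate differences of ATP6V1A and ATP6V1H had opposite signs, which narrows the SD of their sum. The same was true of ATP6AP1 and ATP6AP2.

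The other V-ATPase subunits and assembly factors, 20 genes of which 8 have a row, were split as well, with 4 higher, 4 lower and a median log2 fold change of -0.05. The 2 with the largest changes were ATP6V1E2 (-0.62) and ATP6V1G1 (0.62), both V1 stalk subunits. Taken by sector over both lists, 5 of 6 V0 genes rose (ATP6V0A1, ATP6V0E2, ATP6V0E1, ATP6V0D1 and TCIRG1) and ATP6V0A2 fell (-0.60), with a median of 0.47. Of the 7 V1 genes, 4 fell (ATP6V1A, ATP6V1E2, ATP6V1C1 and ATP6V1E1) and 3 rose (ATP6V1G1, ATP6V1F and ATP6V1H), with a median of -0.39. ATP6V0A1 and ATP6V0A2 encode alternative forms of the same subunit and went in opposite directions. The sectors were compared after the values were seen, and the difference between them was not tested. Of these 13 genes, ATP6V1H and ATP6V1F (adjusted p = 0.0511) did not pass with DESeq2.

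**Figure D4:**
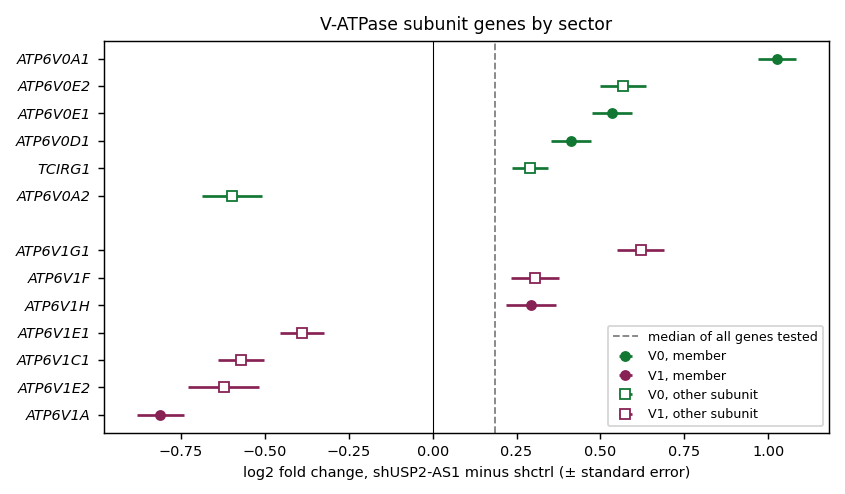
Log2 fold change (x axis, shUSP2-AS1 minus shctrl, bars ± SE, 2 libraries per group) of the 13 V-ATPase subunit genes with a row, V0 in green and V1 in purple, filled circles for the genes described first and open squares for the other subunits. In V0, 5 of 6 genes lie above 0, and in V1, 4 of 7 lie below 0.

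Levels of different genes can be compared only per length, and the following values are normalized read counts per kb of the gene length given in the table. The 5 most abundant of the 41 genes were the same in both groups, in the order PSAP, CTSL, CD63, ATP6V0E1 and CTSD. PSAP was at 6342 per kb in shctrl and 11037 in shUSP2-AS1 cells (group means), and MANBA, the lowest, was at 21.8 and 46.0. SMPD1 moved from rank 34 to rank 13, from 96.0 to 635 per kb, CTSS from rank 32 to rank 22 and FUCA1 from rank 28 to rank 21. In the other direction, ATP6V1A moved from rank 20 to rank 36, PPT1 from rank 14 to rank 28 and NPC1 from rank 21 to rank 30. The length in the table equalled the union of annotated exons in GENCODE 44 for 27 of the 41 genes, so it counts exons that a cell may not use.

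**Figure D5:**
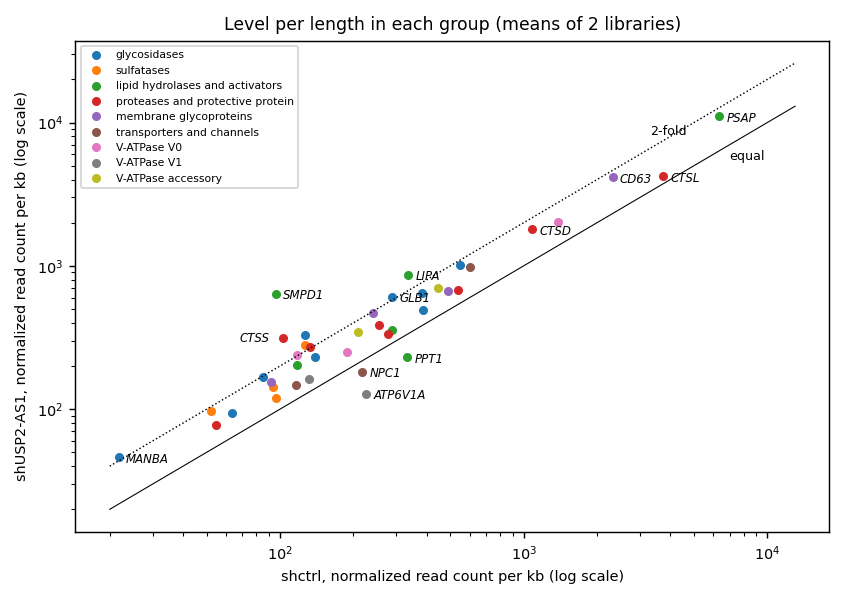
Normalized read count per kb in shUSP2-AS1 (y axis) against shctrl (x axis), both on log scales and means of 2 libraries, for the 41 genes coloured by role, with lines for equal levels (solid) and a 2-fold increase (dotted). SMPD1 stands farthest above the dotted line, and ATP6V1A, PPT1 and NPC1 lie under the solid line.

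Further lysosomal genes outside the 52 were mostly higher as well. For the lists of this and the next 2 paragraphs, the background is 50.6% of all genes tested higher and 49.4% lower. The median log2 fold change of all genes tested was 0.19. Of 30 other hydrolases and lumenal proteins, 18 have a row, with 16 higher, 2 lower and a median log2 fold change of 0.62. The largest changes were in HGSNAT, the membrane enzyme that acetylates heparan sulfate, at 1.5, and CTSV, a close relative of CTSL, at -1.37. HGSNAT was at 1269 and 1300.1 in shctrl and at 3779 and 3505 in shUSP2-AS1 libraries. CTSV was at 128 and 129.7 in shctrl cells, against 45.2 and 53.7 in shUSP2-AS1 cells, and reads shared between CTSL and CTSV may be split uncertainly. Of 25 other membrane proteins, 14 have a row, and all 14 were higher, with a median of 0.73 (TPCN2 had an adjusted p of 0.059 with DESeq2). LMBRD1, needed for cobalamin export, reached 1.34 and SLC36A1, a proton-coupled amino acid transporter, 1.33.

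Genes that deliver and mature the hydrolases were mixed. Of 13 such genes, 8 have a row, 5 of them higher and 3 lower, with a median of 0.49, beside 50.6% of all genes tested that were higher. SUMF1, which makes the catalytic residue of all sulfatases, was at 508 and 509.9 in shctrl and at 1041 and 1093 in shUSP2-AS1 libraries, a log2 fold change of 1.07 (SE 0.07, adjusted p = 4.61e-10). GNPTAB, which builds the mannose phosphate tag, was at 970.1 and 1057 in shctrl cells, against 1725 and 1693 in shUSP2-AS1 cells, a log2 fold change of 0.75 (SE 0.06, adjusted p = 6.77e-09). The groups did not overlap in SUMF1 or GNPTAB, which was also true of 50.6% of all genes tested in the higher direction. GGA1, GGA2 and CLN6 fell (-0.31, -0.74 and -0.72).

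Of 24 genes for TFEB-family factors and regulators of mTORC1, the kinase complex that acts on TFEB at the lysosome, 11 have a row, with 9 higher, 2 lower and a median of 0.33. FNIP2, a partner of folliculin, changed by 1.29 and MITF, a relative of TFEB, by 0.69. The 2 lower genes were RPTOR (-0.45) and AKT1S1 (-0.26). TFE3 changed by 0.19, close to the median of all genes tested, and had a limma adjusted p of 0.163 under median-of-ratios scaling. TFEB itself was not analysed here. With DESeq2, 4 of the 9 higher genes of this list, TFE3, LAMTOR1, RRAGA and TSC1, had an adjusted p of 0.0534 to 0.262. Of 7 cystatins and other cathepsin inhibitors, 4 have a row and all 4 were higher, CSTB with an adjusted p of 0.2 with DESeq2. CST1 was at 8.70 and 9.89 in shctrl and at 36.8 and 45.8 in shUSP2-AS1 libraries. CST2 was at 1.93 and 0 in shctrl cells, against 18.9 and 20.2 in shUSP2-AS1 cells, with 1 shctrl library listed at 0, so no fold is given for it.

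Markers of other cell types were read beside these results. Of 8 epithelial markers, 4 have a row, with KRT8, KRT18 and KRT7 lower and KRT19 higher in shUSP2-AS1, and their summed level was 168132 to 179244 in the shctrl and 106336 to 112823 in the shUSP2-AS1 libraries. Of 10 leukocyte and macrophage markers, 2 have a row, ITGAM and ITGAX, and both were higher, with a summed level of 165 to 203 in shctrl and 961 to 1001 in shUSP2-AS1 libraries. The defining genes PTPRC, CD14 and CSF1R were not analysed here. Of 7 fibroblast markers, 3 have a row (COL1A1, LUM and THY1), all higher, with a summed level of 439 to 482 in shctrl and 1017 to 1165 in shUSP2-AS1 libraries, and 0 of 5 endothelial markers has a row. Mitochondrially encoded genes (12 listed) made up 6.31% of the listed sum in each shctrl library and 7.57% and 7.58% in the shUSP2-AS1 libraries. Their part in the lysosomal values was not tested. Of the 41 genes, 21 share no exon base with another annotated gene, and 11 share 10% or more of their exon length, among them GLB1, TPP1 (13.9%) and MANBA (11.3%).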

How the data were processed

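RNA-seq libraries from A549 cells (2 shctrl, 2 shUSP2-AS1) were compared. The submitters' processing notes name HISAT2 2.0.5, featureCounts 1.5.0-p3, DESeq2 1.20.0 and hg38, and the strand setting of the counting is not given in the sources used here. The values deposited by the authors are a signal, the reads of each gene in each library over that library's size factor. The gene length in the table was used to compare genes. The authors' own comparison is deposited beside them as log2 changes and p-values, raw and adjusted, and was used only to count rows with an adjusted p-value below 0.05 (6828 of 6828). Columns headed scr and sh216 were assigned to shctrl and shUSP2-AS1 by inference from the table's name and to libraries by replicate number, and 0 columns of other samples were present. Dividing by the value of 1 read gave whole reads for 100% of values (tolerance 0.01 reads). Chi-square per degree of freedom between replicates was 3.73 in shctrl and 3.83 in shUSP2-AS1, so the replicates differed beyond counting noise.

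Log2(value + 1) was fitted with limma 3.58.1 (R 4.3.3; lmFit and eBayes with a trend, two-sided) for genes with a mean of at least 10, and p-values were adjusted over all 6812. Calls used an adjusted p below 0.05, alone or together with a log2 change of 1 or more in size. Alternatives were TMM, median-of-ratios (RLE) and upper quartile scaling of recovered reads, edgeR 4.0.16, DESeq2 1.42.0, a pseudocount of 0.1, no filter, a replicate block, treat against a fold change of 2 and each library left out. All of these used only the listed genes, each of which had passed the authors' own DESeq2 test. In simulated libraries limma recovered 100% of 100 genes changed by a log2 of 1 and of 100 changed by 2, and called 8 unchanged genes among 6808 tested. The simulation left all other genes unchanged, used a common dispersion and held no change below a log2 of 1. Every gene of the real table was selected as changed, so the simulation does not measure recovery or false calls there. Python 3.11.15, numpy 2.4.6, pandas 2.3.3 and matplotlib 3.10.9 were used for summaries and plots.

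In each role class the 3 genes with the largest absolute log2 fold change, and GLB1 and USP2-AS1, were given in full, PPT1, CTSA, CTSL and ASAH1 were added after their values were seen, and from other lists the 2 largest were named, with TFE3, the members of small counts and genes whose calls were lost also chosen after their values were seen. The members and lists were chosen with earlier results of these data known. Exon overlaps were taken from GENCODE 44 and promoter windows from RefSeq.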

Additional observations from a re-analysis of the deposited data

How the results depend on the processing

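Of the 492 single-gene values recomputed for the 41 lysosomal genes, 485 kept direction and call and 7 lost the call. The calls lost belonged to CTSL (log2 fold change 0.055 under RLE scaling, 0.056 with DESeq2 and 0.108 without shctrl replicate 2) and, with DESeq2, to ATP6V1H (0.178), CTNS (0.220), CTSA (0.146) and SGSH (0.196). The 38 higher and 3 lower calls became 33 and 3 with DESeq2 and stayed at 37 to 38 and 3 when a library was left out. Of the 9 genes at a log2 fold change of at least 1, 5 remained under RLE scaling (930 higher and 1143 lower among all genes), 5 with DESeq2 (942 and 1140) and 4 in a test against a 2-fold change (541 and 523). The 5 genes, 12.2% of the 41, compare with 13.7% of all genes higher under RLE scaling and 13.8% with DESeq2, and the 4, 9.76%, with 7.94%. Leaving out a library gave 8 or 9, since ATP6V0A1 and GLB1 lie at that limit, and upper quartile scaling gave 11. RLE scaling moved the median of all genes by -0.118, DESeq2 by -0.115 and upper quartile scaling by 0.060. Log2 ratios of the summed levels moved with it. Under RLE scaling they were 0.707 for glycosidases, 0.620 for sulfatases, 0.709 for lipid genes, 0.339 for proteases, 0.653 for membrane glycoproteins, 0.127 for transporters, 0.526 for V0, -0.421 for V1, 0.569 for accessory subunits, 0.424 for all V-ATPase genes and 0.560 for the 41 genes. Upper quartile scaling gave 0.885 for glycosidases, 0.887 for lipid genes, 0.831 for membrane glycoproteins, 0.704 for V0, -0.243 for V1, 0.747 for accessory subunits, 0.602 for all V-ATPase genes and 0.739 for the 41 genes, and TMM gave -0.315 for V1 and 0.675 for accessory subunits.

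The replicate numbers do not pair the libraries by any label, and the replicate differences of the groups correlated with r = -0.04 over 6812 genes. With the replicate block 38 genes were higher and 3 lower, and 9 reached a log2 fold change of 1. With 2 libraries per group, a fit without 1 library assumes that the lone library varies like the other group.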
